A study of Mus musculus with 4 samples.

Results

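CD8 T cells of the injured mouse spinal cord were taken from the 2 injury libraries of a single-cell RNA sequencing study of CD45+ immune cells. A cell was counted as a CD8 T cell if it held at least 600 genes, at most 10% mitochondrial UMIs, at least 2 UMIs of Cd3e, Cd3d and Cd3g together and at least 1 UMI of Cd8a and Cd8b1 together. It also had to hold no UMI of Cd4, Trdc, Cd79a, Csf1r or Csf3r. A UMI (unique molecular identifier) marks 1 captured RNA molecule. These rules left 107 cells at 3 days post injury (dpi) and 207 cells at 14 dpi, which was 314 of the 22394 barcodes of both injury libraries and of the 31660 barcodes of the series.

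The mice were C57BL/6 animals of both sexes, 3 months old at surgery according to the methods of the study. Injury was a moderate contusion at the thoracic level T10, and sham mice were operated on but not struck. The libraries were sham with standard dissociation, sham with actinomycin D (ActD), 3 dpi with ActD and 14 dpi with ActD. ActD blocks transcription during dissociation. Each library pooled mice, and the number of mice per library was not given in the sources used here. The study's methods divide the mice into 3 groups, control and both times after injury, and how the control mice were split between the sham libraries was not stated. With 1 library per condition, no difference could be set against a spread between animals, so no test was made. All intervals are at 95% and cover counting error only. The cells came from a segment of cord around the lesion, dissociated after perfusion, so their position in the tissue is not known.

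CD8 T cells recognise peptides on MHC class I molecules through the T cell receptor. Naive cells circulate through lymph nodes, guided by homing receptors such as Ccr7, and carry the transcription factors Lef1 and Tcf7. After activation they turn these genes down, make chemokines, cytokines and cytotoxic granules, and some later settle in tissue as memory cells. T cells are rare in the healthy cord and enter it after injury.

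CD8 T cells made up 1.12% of the 9528 cells that passed the filters at 3 dpi (0.921 to 1.36%) and 1.90% of the 10879 such cells at 14 dpi (1.65 to 2.18%). Of all cells with at least 2 Cd3 UMIs, 834 at 3 dpi and 1272 at 14 dpi, they were 12.8% (10.6 to 15.3%) and 16.3% (14.3 to 18.4%). The share was thus larger at 14 dpi by both denominators, and the intervals overlapped for the share among Cd3 cells. Cells that the gene exclusions removed, and called doublets, stayed in the Cd3 denominator. With called doublets removed, the share of Cd3 cells at 14 dpi was 20.9% (18.4 to 23.6%). The shares rested on the exclusion of cells with any Csf1r or Csf3r UMI, markers of macrophages and neutrophils. Among the cells with Cd3 and Cd8 UMIs, 123 at 3 dpi and 268 at 14 dpi held a UMI of Csf1r, with a median of 8905 and 14981 UMIs per cell. Keeping the cells with Csf1r or Csf3r gave 2.39% and 4.17% of cells. Leaving out cells with a UMI of Itgam, as the study did, gave 0.787% at 3 dpi.

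The CD8 T cells held 461504 UMIs at 3 dpi and 1253179 UMIs at 14 dpi. Their median depth was 3840 UMIs per cell (1170 to 16423) at 3 dpi and 5610 (1569 to 16170) at 14 dpi. Cells just inside the Cd3 threshold, with 2 UMIs, numbered 9 at 3 dpi and 0 at 14 dpi, and those just outside, with 1 UMI, 11 and 2. Cells with a single Cd8 UMI numbered 15 and 9. The 2 injury libraries shared 36 barcodes, and no barcode was a CD8 T cell in both. Scrublet, which scores doublets, called 1 of the 107 cells and 3 of the 207, and these were kept.

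Genes that the rule did not use show whether the cells were αβ T cells, but not whether they were CD8 rather than CD4 T cells. UMIs of the αβ T cell receptor constant genes Trac, Trbc1 or Trbc2 were found in 104 of 107 cells at 3 dpi and in all 207 cells at 14 dpi. Ccl5, a chemokine of activated T cells, was found in 87 and 192 cells. Of the genes that the rule did use, both Cd8a and Cd8b1 were found in 71 and 180 cells, and Cd8b1 without Cd8a in 31 and 17, which describes the cells and supports no label. Levels are given in CPM, counts scaled to a common total so that libraries of different depth can be set side by side. In CD4 T cells, Trbc2 was at 1188 and 1370 CPM and Ccl5 at 2635 and 2192 CPM at 3 and 14 dpi. Neither gene is thus proper to CD8 T cells. The 5 genes of the B cell list summed to 88.8 and 153 CPM at 3 and 14 dpi. The 8 genes of a list for NK and innate-like T cells summed to 1038 and 456 CPM, with Tyrobp, which myeloid cells also make, as the most abundant, and 3 of the 5 with at least 20 UMIs in all were at least 2-fold lower at 14 dpi. Klrb1c (NK1.1), a receptor of NK and NK T cells, was found in 15 of 107 cells at 3 dpi and in 7 of 207 at 14 dpi, at 49.8 and 9.58 CPM (log2 ratio −2.35, −3.52 to −1.31). It was thus lower at 14 dpi like Gzma, Zeb2 and Klrg1 below, and its part in their levels was not tested. Ncr1, a defining marker of NK cells, had 0 UMIs at 3 dpi and 5 at 14 dpi, all in 1 cell.

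RNA of other cell types was also present and differed between the libraries. A list of 7 macrophage markers summed to 11304 CPM in CD8 T cells at 3 dpi and to 2798 CPM at 14 dpi. Its most abundant genes were Spp1 at 3 dpi and Apoe at 14 dpi, and none of the 7 was at 0. Per cell, the list took a median of 11.2 of every 1000 UMIs at 3 dpi, with 5.43 in the lowest cell, and 2.61 at 14 dpi. B cells of the same libraries, which do not make these genes, had medians of 13.7 and 3.11. After each cell was thinned to 1000 UMIs, Spp1 was found in 94.4% of CD8 T cells and 97.8% of B cells at 3 dpi, and in 13.5% and 14.0% at 14 dpi. A list of 7 neutrophil markers moved the other way, from 739 CPM at 3 dpi to 5074 CPM at 14 dpi, with S100a9 as its most abundant gene and Ly6g at 0 at 3 dpi. A pair of cells held 83.2% of the S100a8 UMIs and 85.1% of the S100a9 UMIs at 14 dpi. The values in B cells are given beside the genes below as a measure of background for genes that B cells do not make. The B cells themselves differed between the libraries, and 4 markers of immature lymphocytes summed to 7.19 CPM in them at 3 dpi and 1241 CPM at 14 dpi. Median depth was 2565 UMIs in B cells at 3 dpi and 3596 at 14 dpi.

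**Figure D1:**
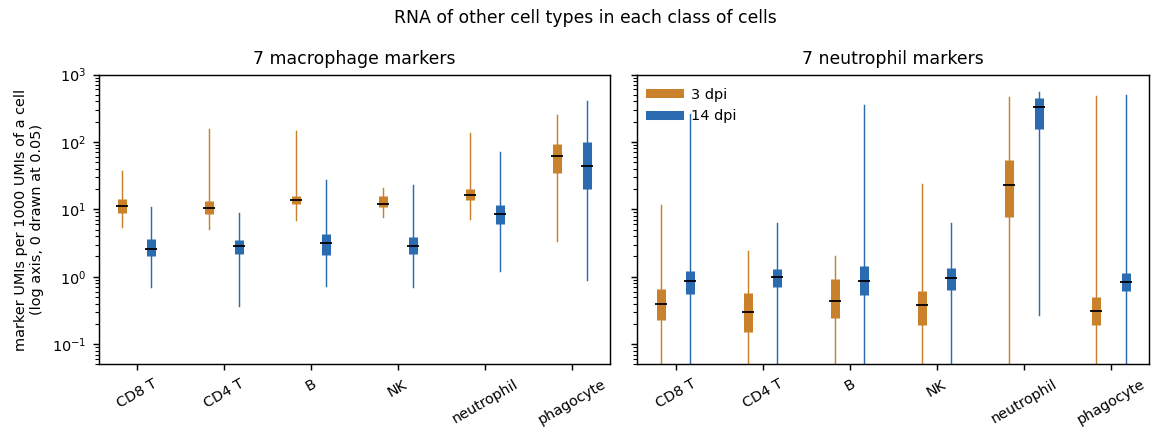
UMIs of 7 macrophage markers (left) and 7 neutrophil markers (right) per 1000 UMIs of a cell, on a log axis, for 6 classes of cells at 3 and 14 dpi. Thin lines span all cells, thick bars the range between the lower and upper quartiles and black ticks the median. In CD8 T cells the macrophage median was 11.2 at 3 dpi and 2.61 at 14 dpi, near those of B cells.

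The comparison of the time points asked how the RNA of CD8 T cells at 14 dpi differed from that at 3 dpi. UMIs were summed over the cells of each library, and the log2 ratio of CPM at 14 dpi over 3 dpi was taken with 0.5 UMI added. A gene counted as tested, meaning that its ratio was taken into the counts, if both libraries together gave 20 or more UMIs. Of these 6991 genes, 713 were at least 2-fold higher at 14 dpi (10.2%) and 382 at least 2-fold lower (5.46%), with a median log2 ratio of 0.18. These shares and this median are the background for each gene list below. Without the genes over 5 times more abundant in phagocytes or neutrophils, 651 of 6554 were higher and 185 lower, and under TMM scaling, which shifts all ratios by −0.09, 582 of the 6991 were higher and 439 lower. Fewer copies per cell and fewer cells with any copy cannot be told apart in these sums, so shares of cells are given beside them.

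Naive genes were lower at 14 dpi. Of the 11 genes of the naive list, all had at least 20 UMIs, 5 were at least 2-fold lower and 0 at least 2-fold higher, and the median log2 ratio was −0.99. Summed over the list, the level was 1471 CPM at 3 dpi, against 713 CPM at 14 dpi. In CD4 T cells of the same libraries, 2 of the 11 were lower and 2 higher, with a median of −0.19, beside 6.85% lower and 8.86% higher among 7010 genes. The difference between the T cell classes was not tested.

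Ccr7, the receptor that draws T cells into lymph nodes, is encoded on chromosome 11 (99144196 to 99155077, minus strand, GRCm38). Its level was 117 CPM (87.9 to 153) at 3 dpi and 19.2 CPM (12.3 to 28.5) at 14 dpi, a log2 ratio of −2.59 (−3.37 to −1.89). UMIs of Ccr7 were found in 21 of 107 cells at 3 dpi and in 13 of 207 at 14 dpi. Thinned to 1000 UMIs, the shares were 8.41% and 0.966%, and those in B cells, which make Ccr7 themselves, 15.7% and 4.19%. Ccr7 was thus rarer at 14 dpi in CD8 T cells and in B cells, and the B cells also differed between the libraries in markers of immature lymphocytes.

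Klf2, the transcription factor that maintains S1pr1, was at 418 and 200 CPM (−1.06, −1.34 to −0.78), and S1pr1, which leads T cells out of tissue and lymph nodes, had a log2 ratio of −1.30. Igfbp4 was at 121 and 6.38 CPM (−4.17, −5.53 to −3.17). Lef1 had a log2 ratio of −0.85 and Tcf7, its partner in naive and memory cells, −0.10 (−0.51 to 0.35). The homing and egress genes therefore stood lower at 14 dpi, whereas Tcf7 was at 141 and 132 CPM. Klf2 was higher at 14 dpi in CD4 T cells (0.57) and lower in B cells (−0.79), mononuclear phagocytes (−0.87) and neutrophils (−1.77), and S1pr1 was lower in B cells (−1.82).

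**Figure D2:**
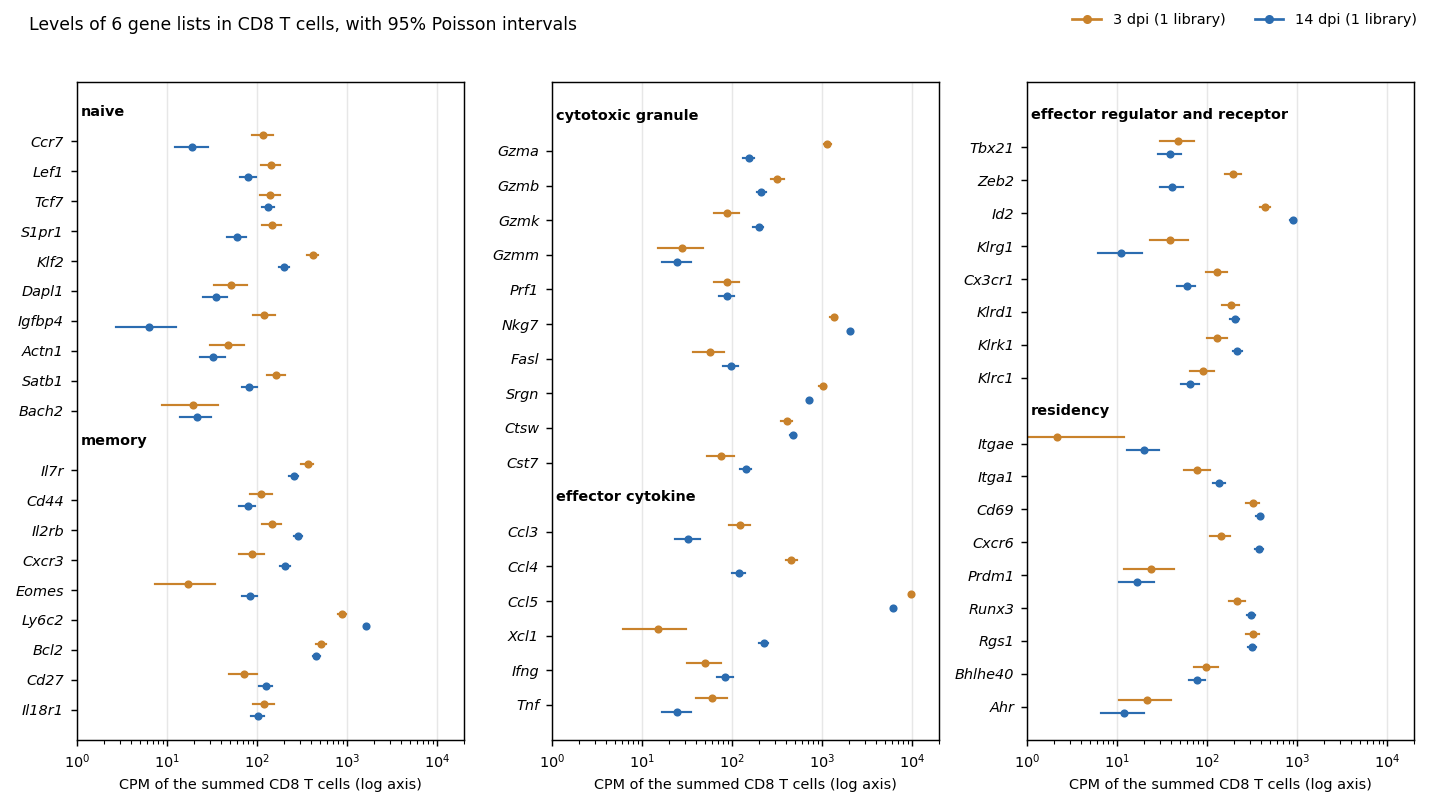
Levels of 6 gene lists in the summed CD8 T cells, in CPM on a log axis, at 3 dpi and 14 dpi (1 library each). Points are levels and lines 95% Poisson intervals, for list members with 20 or more UMIs over both, except 1 naive gene that is not shown. Most naive genes lie lower at 14 dpi, whereas Xcl1, Eomes, Cxcr3, Gzmk and Cxcr6 lie higher.

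Of the 10 genes of the memory list, 9 were tested, 2 were at least 2-fold higher and 0 lower, with a median log2 ratio of 0.80. Over all 6991 genes tested, 10.2% were higher and 5.46% lower, with a median of 0.18. Eomes, a transcription factor of memory and effector CD8 T cells, was at 17.3 CPM at 3 dpi and 83.8 CPM at 14 dpi (2.19, 1.24 to 3.52). Cxcr3, a receptor for interferon-induced chemokines, was at 88.8 and 204 CPM (1.19, 0.72 to 1.71), and its UMIs were absent from thinned B cells of both libraries. Il2rb, a subunit of the receptors for interleukins that sustain memory cells, stood at 0.96 and Ly6c2 at 0.90. Il7r, the receptor for the survival cytokine of naive and memory cells, was lower (−0.51, −0.78 to −0.23), and Bcl2, which protects T cells from death, was at 514 and 460 CPM.

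The cytotoxic granule list held 10 genes, of which 1 was at least 2-fold higher, 1 lower and 8 between, with a median of 0.11 (−0.13 to 0.47 over alternative settings). Its granzymes, the proteases of the granule, went in opposite directions. Gzma lies on chromosome 13 (113093825 to 113100981, minus strand) and was at 1144 CPM (1049 to 1246) at 3 dpi and 153 CPM (132 to 176) at 14 dpi, a log2 ratio of −2.90 (−3.15 to −2.66). It was found in 35 of 107 and 26 of 207 cells, and 5 cells held 75.5% of its UMIs at 14 dpi. Gzmk, a near neighbour on the same strand (113171608 to 113225908), was at 88.8 CPM at 3 dpi and 197 CPM at 14 dpi (1.14, 0.67 to 1.66). Thinned to 1000 UMIs, Gzma was found in 29.0% of CD8 T cells at 3 dpi (20.6 to 38.5%) and 6.28% at 14 dpi (3.39 to 10.5%), and Gzmk in 7.48% (3.28 to 14.2%) and 20.3% (15.0 to 26.4%). Unthinned, the shares were 32.7% and 12.6% for Gzma and 22.4% and 48.8% for Gzmk. In thinned B cells Gzma was in 0 of 89 cells at 3 dpi, which allows up to 3.37%, and in 0.985% at 14 dpi, and Gzmk in none of 89 and of 406 cells. With the cells holding Csf1r or Csf3r kept, the log2 ratio of Gzma was −0.83 and that of Gzmk 1.16.

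Of the 35 cells with Gzma at 3 dpi, 12 also held Gzmk, and of the 26 at 14 dpi, 19 did. NK cells, which use Gzma as a main granzyme, had it in 68.2% of 22 and 74.2% of 233 thinned cells. The other granule genes moved less. Gzmb was at 319 and 212 CPM (−0.59), Prf1, which forms the pore for granzymes, at 88.8 and 87.8 CPM (−0.03, −0.55 to 0.54), and Nkg7, a granule membrane protein, at 1341 and 2022 CPM (0.59, 0.46 to 0.72).

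**Figure D3:**
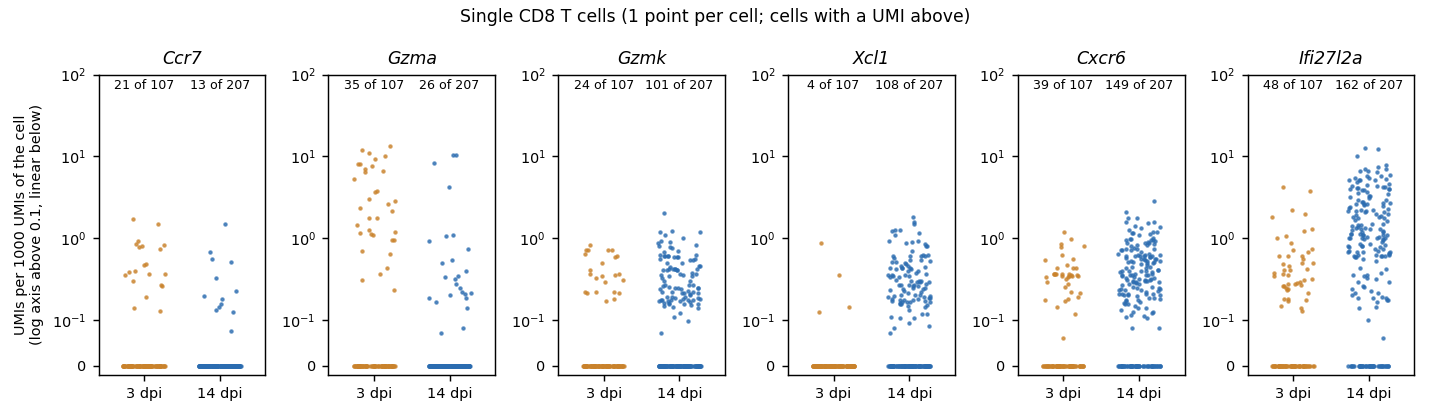
UMIs of 6 genes per 1000 UMIs in each CD8 T cell, 1 point per cell, with the number of cells holding a UMI above each column. The axis is linear below 0.1 and logarithmic above. Gzma was found in 35 of 107 cells at 3 dpi and 26 of 207 at 14 dpi, and Xcl1 in 4 of 107 and 108 of 207.

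The effector cytokine list held 6 genes, with 1 at least 2-fold higher, 3 lower and a median of −0.99 (−1.09 to 0.03 over alternative settings). Xcl1, a chemokine for cross-presenting dendritic cells, lies on chromosome 1 (164931644 to 164935527, minus strand). It was at 15.2 CPM (6.10 to 31.3) at 3 dpi and 225 CPM (200 to 253) at 14 dpi, a log2 ratio of 3.79 (2.83 to 5.22). It was the one gene of the fixed lists for naive, memory, effector and residency genes among the 8 highest ratios. These ratios were ranked among genes with at least 50 UMIs, with some gene classes left out. Xcl1 was found in 4 of 107 cells at 3 dpi and in 108 of 207 at 14 dpi. After thinning the counts were 0 of 107, which allows up to 2.80%, and 34 of 207, or 16.4% (11.7 to 22.2%), beside 0.246% of B cells at 14 dpi. Xcl1 was also higher at 14 dpi in CD4 T cells, at 1.25 and 51.1 CPM, and it was at 578 and 1168 CPM in NK cells.

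Ccl5, the most abundant gene of the list in these cells, was at 9751 and 6112 CPM (−0.67, −0.73 to −0.62). Its share of thinned cells nevertheless was 75.7% at 3 dpi and 88.9% at 14 dpi, so that a lower level went with a larger share of cells. In B cells the share was 4.49% and 1.72%. Ifng, the gene of interferon γ, was at 49.8 and 83.8 CPM (0.73, 0.09 to 1.47). Ccl3, Ccl4 and Tnf, with log2 ratios of −1.89, −1.93 and −1.30, are also made by myeloid cells. Ccl4 was found in 29.0% and 9.18% of thinned CD8 T cells, in 18.0% and 4.19% of B cells and in 42.6% and 8.08% of neutrophils. The part of RNA from other cells in their levels was not tested.

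The list of effector regulators and receptors had 8 tested genes of 9, with 1 at least 2-fold higher and 3 lower. Its median was −0.40 (−0.66 to 0.25 over alternative settings). Zeb2, a transcription factor of terminal effector cells, was at 195 and 40.7 CPM (−2.25, −2.79 to −1.75), and Klrg1, a receptor of such cells, at 39.0 and 11.2 CPM (−1.79, −2.92 to −0.71). Cx3cr1, the fractalkine receptor of effector cells and of microglia, was at 128 and 59.0 CPM (−1.12), and its log2 ratio was 0.90 when cells with Csf1r or Csf3r were kept. Zeb2 was found in 21.5% of thinned CD8 T cells at 3 dpi and 3.86% at 14 dpi, and in 11.2% and 35.5% of B cells, where it was at 209 and 352 CPM and so gives no measure of background. In mononuclear phagocytes Zeb2 was at 439 CPM at 3 dpi, and the part of their RNA in its level in CD8 T cells was not tested. Id2, which promotes effector and resident cells, was at 440 and 887 CPM (1.01, 0.80 to 1.24).

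Residency genes gave a mixed picture. Of 10 genes, 9 were tested, 2 were at least 2-fold higher, 0 lower, and the median was 0.25. This lay near the median of all genes tested (0.18), of which 10.2% were at least 2-fold higher and 5.46% lower. Cxcr6, a receptor that holds T cells in tissue, lies on chromosome 9 (123806475 to 123811760, plus strand). It was at 141 CPM (109 to 180) at 3 dpi and 377 CPM (343 to 412) at 14 dpi, a log2 ratio of 1.41 (1.04 to 1.82). The thinned share of cells with Cxcr6 was 12.1% (6.63 to 19.9%) at 3 dpi and 32.4% (26.0 to 39.2%) at 14 dpi, and the share of B cells was 1.12% and 0.246%. In CD4 T cells Cxcr6 had a log2 ratio of −0.58. Itgae (CD103), which binds epithelial cadherin, had 1 UMI at 3 dpi and 25 at 14 dpi (2.65, 0.59 to 8.56), in 12 of 207 cells. Cd69, which blocks exit from tissue, was at 321 and 383 CPM (0.25, −0.01 to 0.53), Itga1 stood at 0.78 and Runx3 at 0.50. Ratios were above 0 for 5 of the 9 tested genes. Ahr (−0.88), Prdm1 (−0.54), Bhlhe40 (−0.34) and Rgs1 (−0.03) were below 0, each with an interval across 0. Zfp683 (Hobit) had 5 UMIs at 14 dpi, under the minimum for the pair. At 14 dpi, 77 of the 101 cells with Gzmk and 87 of the 108 cells with Xcl1 also held Cxcr6, which was found in 149 of all 207 cells.

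Of 14 activation and checkpoint genes, 8 were tested, 3 were at least 2-fold higher and 0 lower. Their median was 0.20, or 1.24 without the cells that held Itgam, beside 0.18 for all genes tested. The 3 were Pdcd1 (PD-1), Lag3 and Tox, inhibitory receptors and a transcription factor of persistently stimulated cells. Lag3 was at 4.33 and 23.9 CPM in CD8 T cells and at 2.25 and 162 CPM in mononuclear phagocytes, and its log2 ratio of 2.17 was 5.22 with the Csf1r and Csf3r cells kept. Pdcd1 was at 8.67 and 47.1 CPM (2.28, 1.01 to 4.36) and Tox at 15.2 and 70.2 CPM (2.12, 1.11 to 3.57). Pdcd1 was found in 4 of 107 and 37 of 207 cells. Of the 8 tested genes, 6 had a ratio above 0, among them Ctla4 (0.14). Icos, the most abundant of the list at 3 dpi, was lower, at 91.0 and 58.3 CPM (−0.65, −1.21 to −0.06). Under a stricter filter on cells the ratio of Icos was 0.10. Cd38 was also lower (−0.80, −1.62 to 0.07). Havcr2, Tigit and Tnfrsf9 stayed under 20 UMIs. Trafficking genes, 11 of 13 tested, had 3 at least 2-fold higher and 0 lower, beside 10.2% and 5.46% of all genes tested. Besides Cxcr3 and Cxcr6, the third was Itgb1, the β1 integrin chain, at 249 and 806 CPM (1.69, 1.41 to 1.98), found in 29.9% and 51.7% of thinned cells and in 4.49% and 5.67% of B cells.

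Cells were also sorted by what each held after thinning to 1000 UMIs, with 4 naive genes (Ccr7, Lef1 and Dapl1 among them) and the effector genes Ccl5, Gzma, Gzmb and Gzmk. Cells with naive and no effector UMIs were 15.9% (17 of 107, 9.54 to 24.2%) at 3 dpi and 3.86% (8 of 207, 1.68 to 7.47%) at 14 dpi. Cells with effector and no naive UMIs were 65.4% (55.6 to 74.4%) and 79.7% (73.6 to 85.0%). Cells with both were 10.3% and 9.18%, and cells with neither 8.41% and 7.25%. In CD4 T cells the naive share was 7.32% and 9.04%. It was 40.4% and 28.1% in B cells and 9.32% and 43.8% in neutrophils, so the combinations describe cells and do not name cell types. The intervals of the naive share did not overlap in CD8 T cells. Unthinned, it was 16.8% and 2.90%.

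**Figure D4:**
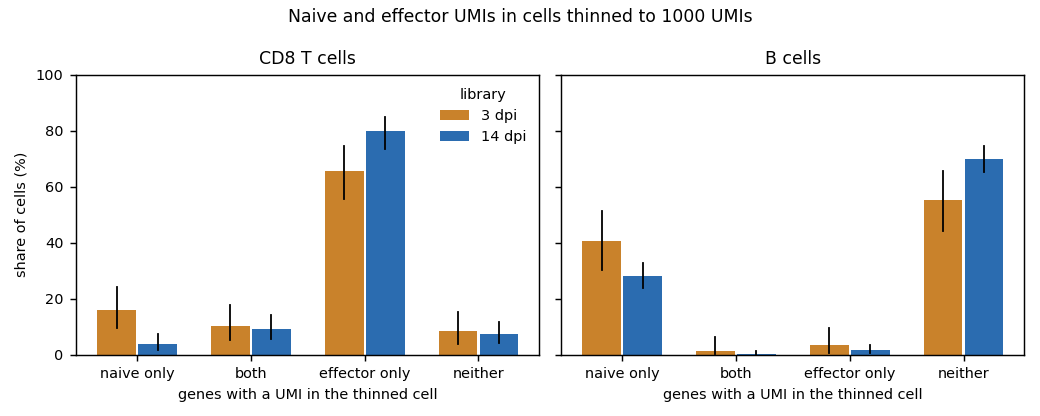
Shares of CD8 T cells (left) and B cells (right) with UMIs of naive genes, effector genes, both or neither, after thinning each cell to 1000 UMIs. Bars are shares in 1 library each and black lines exact binomial intervals. Cells with naive and no effector UMIs were 15.9% of CD8 T cells at 3 dpi and 3.86% at 14 dpi.

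Of the genes compared within the effector cells, 6 are given. Among unthinned cells with an effector UMI and no naive UMI, 51 at 3 dpi and 112 at 14 dpi, the log2 ratio was 3.06 for Xcl1, 1.29 for Cxcr6, 1.24 for Itgb1, 2.30 for Ifi27l2a, −2.73 for Zeb2 and −1.44 for Klf2. The 54 and 86 cells with a naive UMI were a different mix at each time, since 36 and 80 of them also held an effector UMI. In them the values were 5.10, 1.44, 2.30, 1.90, −1.74 and −0.82. All 6 genes had the same sign in both sets of cells. Tcf7 did not, at 0.29 and −0.15, with both intervals across 0.

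Several of these values rested on the exclusion of cells with Csf1r or Csf3r UMIs. With those cells kept, a setting chosen after seeing the data, the log2 ratio was −1.48 for Ccr7, −2.11 for Igfbp4, 5.07 for Xcl1, −1.91 for Tnf, 1.21 for Itgae and 1.18 for Pdcd1. Among the genes short of 2-fold under this setting were Gzma (−0.83), Zeb2 (−0.72), Klrg1 (−0.78), S1pr1 (−0.75) and Id2 (0.32). The sign turned for Gzmb (0.29, 0.09 to 0.50), Tcf7 (0.35), Bcl2 (0.36) and Prf1 (0.50). Of 159 genes of the lists and named genes, 26 changed sign under this setting, and 8 of these had intervals away from 0 in both. What the cells left out are was not tested.

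Interferon response genes were higher at 14 dpi. Interferons act on nearly all cells through transcription factors that bind short elements in promoters and switch on antiviral genes. Of 18 genes, all tested, 13 were at least 2-fold higher and 0 lower, with a median of 1.33, and their levels summed to 2561 CPM at 3 dpi, against 6296 CPM at 14 dpi. Promoter sequence of 4 members is shown to let the shared element be seen. The letters GAAANNGAAA, or TTTCNNTTTC on the other strand, form the core of such elements and are in capitals wherever all 10 letters lie in the stretch. Each stretch is 60 bases from the 250 bases before a RefSeq start site, in the direction of the gene (GRCm38.p6).
Ifit1, chr19:34640779-34640838, plus strand: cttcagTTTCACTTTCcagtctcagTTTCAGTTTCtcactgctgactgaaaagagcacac
Ifit3, chr19:34583382-34583441, plus strand: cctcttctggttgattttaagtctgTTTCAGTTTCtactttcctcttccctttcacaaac
Isg15, chr4:156200850-156200909, minus strand: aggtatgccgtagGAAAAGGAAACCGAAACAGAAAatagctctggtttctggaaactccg
Bst2, chr8:71537562-71537621, minus strand: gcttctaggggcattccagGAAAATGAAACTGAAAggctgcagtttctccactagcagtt
The Isg15 and Bst2 stretches hold overlapping matches. RefSeq promoters were at hand for 11 of the 18 interferon genes, and 7 of these 11 held the letters (Ifit1, Ifit3, Isg15, Bst2, Rsad2, Ifi203 and Ifi206), beside 936 of 27025 genes with a promoter (3.46%) and 206 of 5547 tested genes (3.71%). Of the genes at least 2-fold higher at 14 dpi, 29 of 541 held them (5.36%, 3.62 to 7.61%), and of those at least 2-fold lower, 12 of 281 (4.27%, 2.23 to 7.34%). The 29 include all of the 7 interferon genes but Ifi206 (log2 ratio 0.93), so the 2 counts are not separate evidence. A match describes the letters and is not a site shown to be bound.

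Ifi27l2a, an interferon-induced protein, lies on chromosome 12 (103442167 to 103443680, minus strand) and was at 375 CPM (321 to 435) at 3 dpi and 1686 CPM (1615 to 1760) at 14 dpi, a log2 ratio of 2.17 (1.95 to 2.40). It was found in 18.7% (11.8 to 27.4%) and 56.5% (49.5 to 63.4%) of thinned CD8 T cells. B cells had it in 10.1% and 37.2%, and NK cells in 13.6% of 22 and 4.72% of 233 cells. At 14 dpi the share of cells with Ifi27l2a was thus larger in CD8 T and B cells than in NK cells of the same library. Of the 4 genes with sequence shown, Ifit3 was at 41.2 and 172 CPM (2.02) and Ifit1 at 47.7 and 132 CPM (1.44). Bst2, which tethers virus to the cell, was at 137 and 389 CPM, and Isg15, a ubiquitin-like modifier, at 126 and 284 CPM (1.17). Rtp4 had a log2 ratio of 2.55 (1.56 to 3.99). Oasl2 was the one gene with a negative ratio (−0.82, −1.71 to 0.14), and its ratio was 1.51 with the Csf1r and Csf3r cells kept and 0.17 as a mean over cells. With those cells kept, Ifit3 was at 3.02 and Isg15 at 2.24.

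A few cells held much of the interferon RNA at 3 dpi. Per cell, the 18 genes took a median of 1.67 of 1000 UMIs at 3 dpi and 4.67 at 14 dpi, and at least 8 of the 18 were found in 8 of 107 and 129 of 207 cells, the latter with more UMIs per cell. The 5 cells richest in them held 33.8% of the list's UMIs at 3 dpi and 10.5% at 14 dpi. At 3 dpi, 5 cells held 84.2% of the Ifit3 UMIs and 79.3% of the Isg15 UMIs. In CD4 T cells the list median was 1.51, with 15 of 18 at least 2-fold higher. It was 2.30 in mononuclear phagocytes, 1.51 in NK cells, 1.36 in neutrophils and 0.56 in B cells. In NK cells, which held 112 UMIs of the list at 3 dpi, 14 of 18 were at least 2-fold higher, beside 1174 of 6608 genes. The 5 genes that the study named as higher in its αβ T cells of 14 dpi (Ifi27l2a, Isg15, Ifit3, Bst2 and Ltb) were all at least 2-fold higher in CD8 T cells, with a median of 1.62. They were chosen on these libraries and give no independent evidence of direction.

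**Figure D5:**
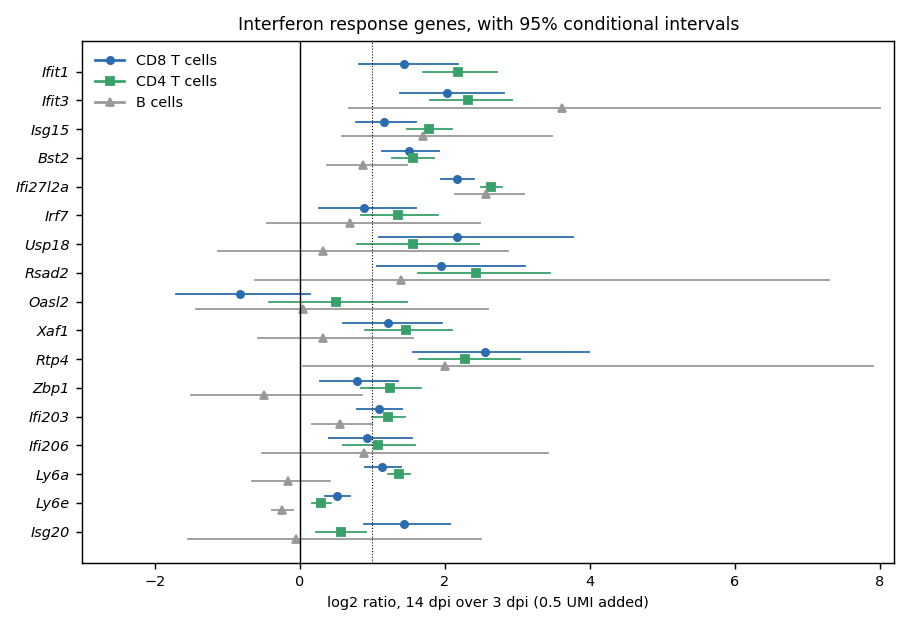
Log2 ratios of all but 1 of the 18 interferon response genes at 14 dpi over 3 dpi in CD8 T, CD4 T and B cells, with 95% conditional intervals. Genes with fewer than 20 UMIs in a class are left out, solid and dotted lines mark ratios of 0 and 1, and intervals that pass 8 end there. In CD8 T cells most of the genes lie at or above 1, and Oasl2 lies below 0.

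MHC class I genes were also higher at 14 dpi, with 4 of 9 at least 2-fold higher, 0 lower and a median of 0.99. Among all genes tested, 10.2% were at least 2-fold higher and 5.46% lower. H2-D1, a class I heavy chain, was at 969 and 2368 CPM (1.29, 1.15 to 1.44), H2-K1 at 1415 and 2850 CPM (1.01, 0.89 to 1.13), and Psmb9, a subunit of the immunoproteasome that makes the peptides, had a ratio of 1.38. Genes of the T cell receptor complex, several of which chose the cells, had 0 of 15 past 2-fold, with a median of 0.43. Ratios were above 0 for 14 of the 15, beside 4341 of all 6991 genes.

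Immediate early genes, which respond within minutes to stimuli and to tissue dissociation, were lower at 14 dpi, with 8 of 14 at least 2-fold lower, 0 higher and a median of −1.63. Fos, a subunit of AP-1, was at 427 and 79.0 CPM (−2.43, −2.80 to −2.08) and in 27.1% and 7.25% of thinned cells. In B cells the shares were 48.3% and 5.42%. The list median was −1.51 in CD4 T cells, −2.80 in B cells and −1.96 in mononuclear phagocytes, so the direction was shared by all 4 classes. The list summed to 3367 and 1866 CPM in CD8 T cells, 6295 and 1850 CPM in mononuclear phagocytes and 16760 and 5787 CPM in neutrophils. Without the genes over 5 times more abundant in phagocytes or neutrophils, its median in CD8 T cells was −0.43. The part of RNA from other cells in these levels was not tested. Both libraries were made with ActD, and the headers of their matrices name different versions of the counting software (3.0.1 at 3 dpi and 3.1.0 at 14 dpi). The software version and time after injury cannot be told apart. The same 2 versions are named by the sham libraries, 3.0.1 with standard dissociation and 3.1.0 with ActD. In the 11 and 5 cells there that passed the rule, Fos was at 700 CPM (515 to 932) and 88.9 CPM (18.3 to 260). Dissociation and version differ together between the sham libraries, and neither was tested.

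Proliferation genes had 10 of 18 tested genes at least 2-fold higher and 0 lower, with a median of 1.03, while in CD4 T cells 8 of 20 were at least 2-fold lower and 0 higher, with a median of −0.64. In CD8 T cells single genes of the list rested on few cells at 14 dpi. Mki67, a marker of cycling cells, was at 41.2 and 113 CPM (1.43, 0.76 to 2.23), and 5 cells held 66.9% of its UMIs at 14 dpi. As a mean over cells its log2 ratio was 0.84, short of 2-fold. Both Mki67 and Top2a were found in 2 of 107 and 12 of 207 cells. The median cell gave 1.45 of 1000 UMIs to the list at 3 dpi and 1.35 at 14 dpi. With the cells holding Csf1r or Csf3r kept, the list median was −0.71.

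Ratios were also ranked among genes with 50 or more UMIs over both libraries, with some gene classes left out. The 8 lowest included Hmox1, Pf4, Il1b, Cxcl2, Ccl7, F13a1 and Fn1, from −7.86 to −5.65. These 7 were more abundant in mononuclear phagocytes than in CD8 T cells at 3 dpi, and Hmox1, for example, was at 462 CPM in CD8 T cells, 629 CPM in B cells and 3945 CPM in mononuclear phagocytes. Il1b and Cxcl2 were at 9110 and 9159 CPM in neutrophils at 3 dpi, against 463 and 1655 CPM in mononuclear phagocytes. The 8 highest were Hist1h3c, Retnlg, Camp, Xcl1, Syap1, Cenpf, Ngp and Iigp1. Retnlg, Camp and Ngp are granule or secreted products of neutrophils, at 16241, 20087 and 18151 CPM in neutrophils at 14 dpi, and the log2 ratio of Retnlg was 5.01, or 1.91 with called doublets removed. Hist1h3c, a histone gene of dividing cells, had 0 UMIs at 3 dpi and 56 at 14 dpi, at least 6.87-fold higher if 3 UMIs are allowed at 3 dpi, and 5 cells held 91.1% of its UMIs. Iigp1, an interferon-induced GTPase, was at 4.33 and 51.1 CPM (3.25, 1.65 to 6.64), and 22 of 207 cells held it at 14 dpi. In B cells, neutrophils and mononuclear phagocytes of both libraries, Xcl1 was at most at 11.8 CPM and Iigp1 at 12.9 CPM.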

How the data were processed

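CD45+ cells of 4 libraries, 1 per condition, were sequenced with the 10x Chromium 3′ kit. The deposited files hold UMI counts per gene and barcode, as whole numbers without normalization, made with Cell Ranger and mm10 according to the submitters' processing notes. The matrix headers name version 3.0.1 (3 dpi) and 3.1.0 (14 dpi). The libraries held 125270696 UMIs at 3 dpi and 129935880 at 14 dpi, and 60412094 and 27447471 in the standard and ActD sham libraries. The filters of the study on cells (600 genes, 10% mitochondrial UMIs) were applied again here.

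The 5 gene exclusions and the marker thresholds chose the CD8 T cells, and other classes were gated likewise (CD4 T: Cd4 and no Cd8; B: at least 2 UMIs of Cd79a and Cd79b, no Cd3; NK: at least 2 UMIs of Ncr1 and Klrb1c, no Cd3; neutrophils: at least 2 of Csf3r; mononuclear phagocytes: at least 2 of Csf1r). Doublets were scored with Scrublet in scanpy 1.11.5 at 0.8% per 1000 cells and kept, and their removal was an alternative. The members and lists were chosen with earlier results of these data known. Counts were summed per library and scaled to CPM. Ratios carry exact conditional intervals, levels exact Poisson intervals and shares exact Clopper-Pearson intervals at 95%. A count of 0 allows up to 3 counts. The intervals were tested on simulated data, and the outcome is not reported here. Cells were thinned without replacement to 1000 UMIs, with shallower cells left out (none of the CD8 T cells). Genes named are members of the fixed lists, with at least 20 UMIs in the pair or stated as below it, and the 8 highest and 8 lowest ratios among genes with at least 50 UMIs, leaving out sex-linked, mitochondrial, haemoglobin, ribosomal protein and immunoglobulin genes and unnamed gene models. Genes were matched by identifier to GENCODE M21 (30934 of 31053). Alternatives changed the filters, the gate, doublet removal, scaling (TMM, edgeR 4.0.16 in R 4.3.3), weights of cells, minimum UMIs, added UMIs and depth. A few genes of the lists are not reported here.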

Additional observations from a re-analysis of the deposited data

Results flagged for a closer look

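Cells passing the same rule were also found in the sham libraries, which entered no comparison. The standard sham library held 11 such cells among 5736 (0.192%, 0.0958 to 0.343%) and the ActD sham library 5 among 2203 (0.227%, 0.0737 to 0.529%). Of the 11, 7 held a UMI of Ccr7, 7 of Lef1 and 5 of Ccl5, and of the 5, Ccr7 was found in 1, Lef1 in 2, Ccl5 in 4 and Cxcr6 in 3.

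Of the genes in the lists, 5 were at least 2-fold higher in one of CD8 T and CD4 T cells at 14 dpi and at least 2-fold lower in the other. The difference between the classes was not tested. Klrg1 had a log2 ratio of −1.79 in CD8 T cells and 2.30 in CD4 T cells. The other 4 were proliferation genes. Mki67 stood at 1.43 and −1.26, Ube2c at 2.44 and −1.92, Cenpf at 3.60 and −2.64 and Nusap1 at 3.12 and −1.69, in CD8 and CD4 T cells respectively. As a mean over cells, the ratio in CD8 T cells was 0.84 for Mki67, short of 2-fold, 1.16 for Ube2c and 1.68 for Nusap1. In CD8 T cells at 14 dpi, 5 cells held 74.5% of the UMIs of Ube2c, 83.7% of those of Cenpf and 91.4% of those of Nusap1, and the signs of all 4 proliferation genes turned when cells with Csf1r or Csf3r were kept. Further genes, among them Klf2, Gzmb and Cxcr6, had opposite signs in the T cell classes with both intervals away from 0, but were past 2-fold in no more than 1 class.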

How the results depend on the processing

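No paired analysis was possible because each condition has 1 library. Keeping cells with Csf1r or Csf3r, chosen after seeing the data, moved more genes than any other alternative (of 159, 69 left their interval and 9 past 2-fold changed sign). CD8 T cells were then 228 at 3 dpi (2.39% of cells, 27.3% of Cd3 cells) and 454 at 14 dpi (4.17% and 35.7%), 1033 of 10513 tested genes were at least 2-fold higher and 680 lower, and the list medians were 2.19 for the 5 αβ T cell genes, 0.78 for the T cell receptor and −0.71 for proliferation. Of genes past 2-fold, signs turned for Cx3cr1 (0.90), Mki67 (−0.82), Top2a (−0.22), Ccnb2 (−1.25), Stmn1 (−0.79), Ube2c (−0.95), Cenpf (−0.93), Nusap1 (−0.015) and Cdca8 (−0.18), and in all 26 of 159 genes changed sign, beside 1 to 9 under each of the others that turned any. Leaving out cells with Itgam gave 0.787% of cells and 8.99% of Cd3 cells at 3 dpi, and removing doublets 20.9% of Cd3 cells at 14 dpi. With at least 50 UMIs, 326 of 4183 genes were higher and 145 lower, and with at least 10 UMIs 675 of 8704 were lower. Leaving out genes over 5 times more abundant in phagocytes or neutrophils left 185 lower genes, and higher genes were then 77.9% of those past 2-fold in place of 65.1%. Under TMM scaling, which shifts every ratio by −0.09, they were 57.0%. The causes were not tested.

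Over all 13 alternatives, medians ranged from −1.08 to −0.57 for naive genes, 0.71 to 1.02 for memory genes, 0.16 to 0.42 for residency genes and 1.22 to 1.84 for interferon genes. Those of cytotoxic granule (−0.13 to 0.47), effector cytokine (−1.09 to 0.03) and effector regulator genes (−0.66 to 0.25) crossed 0, that of activation and checkpoint genes ranged from 0.11 to 1.24, and that of immediate early genes from −2.31 to −0.43.

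Shares of cells depend on depth by construction. Thinned to 2000 UMIs, they were 26.3% for Xcl1 at 14 dpi, 21.6% and 42.0% for Cxcr6, 30.4% and 64.9% for Ifi27l2a, and 72.2% for effector cells at 14 dpi. Unthinned, they were 12.6% for Gzma at 14 dpi, 22.4% and 48.8% for Gzmk, 3.74% and 52.2% for Xcl1, 36.4% and 72.0% for Cxcr6, 44.9% and 78.3% for Ifi27l2a, and 47.7% and 54.1% for effector cells.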

Other observations

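Variable segments of the T cell receptor β chain were read in few cells, since reads cover the 3′ end of transcripts. Among CD8 T cells, UMIs of any Trbv segment were found in 15 of 107 cells at 3 dpi, over 8 segments, and in 34 of 207 at 14 dpi, over 15 segments. The segment found most often was in 3 cells at 3 dpi and in 7 cells at 14 dpi (Trbv13-1).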
